A study of Mus musculus with 23 samples.

Results

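The genes Tal1, Lyl1, Lmo2, Ldb1, Tcf3, Tcf4, Tcf12, Id1, Id2 and Id3 encode the SCL complex and the basic helix-loop-helix (bHLH) proteins that pair with it or hold its partners back. They were followed through blood formation from mouse embryonic stem (ES) cells with and without the leukaemic fusion protein RUNX1-ETO. A gene was represented by the probe with the highest mean among those whose RefSeq accession belongs to it, and all 10 were measured, among 20145 genes named on the array and 15202 that passed the filter on low intensity. All 10 passed that filter, and their probes were well above background on every array with no saturated spot.

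Expression was measured on 1-colour Agilent arrays, 1 array per RNA sample. The cells came from an ES cell line, labelled strain C57BL/6, that carries RUNX1-ETO under a promoter answering to doxycycline (Dox) and keeps its own Runx1 genes. Every group carries this transgene, the uninduced controls included, and which targeted clone gave each array was not given in the sources used here. In the blast culture, haemogenic endothelium (HE; KIT+Tie2+CD41-), HE2 (KIT+Tie2+CD41+) and CD41+KIT+Tie2- progenitors were sorted on day 2, either without Dox or with 0.1 µg per ml Dox from day 1. Myeloid progenitors were progenitors of the blast culture expanded with cytokines and harvested on day 3, either without Dox or with Dox for the last 12 h from day 2. HE, HE2 and myeloid progenitors had 3 arrays without and 3 with Dox, and the CD41+KIT+Tie2- progenitors had 2 and 2. A further uninduced progenitor array, called a technical replicate by its title and replicate 3 by its source name, was kept out of the fit. It is given beside some of the results that it touches. Titles call the other replicates biological, but the source name of induced myeloid array 3 calls it technical, and no label says which cultures the arrays came from. P values thus measure the spread between these arrays, which may be technical in part. The deposited normalized values carry the numbers 2 and 3 of induced HE, HE2 and myeloid progenitors the other way round from the array files, whose numbers are used here, so that the technical array may be induced myeloid array 2 or 3. Group means do not depend on this order.

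SCL, the product of Tal1, is a bHLH transcription factor without which no blood forms, and LYL1 is its closest relative. Neither binds DNA well alone: each pairs with an E-protein (from Tcf3, Tcf4 or Tcf12) on a short site called an E-box. LMO2 bridges this pair to LDB1 and to a GATA factor, and the whole assembly sits at the regulatory elements of blood and endothelial genes. The ID proteins have the helix-loop-helix but no DNA-binding part, so that they take E-proteins out of use, and Id1, Id2 and Id3 answer to BMP signals. RUNX1-ETO itself binds E-proteins, LMO2, LDB1 and LYL1 in leukaemic cells.

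The promoters of Lyl1 and Tal1 are shown because these related genes differed in sign under RUNX1-ETO in HE. Each is the 300-base window across an annotated start, most of it upstream, from RefSeq on build GRCm38.p6, plus strand, 5′ to 3′, with capitals marking an E-box (CANNTG) or a GATA site (AGATAA or AGATAG, and equally TGATAA or TGATAG; here on the minus strand). Coordinates are chr8:84701207-84701506 for Lyl1 and chr4:115056176-115056475 for the upstream start of Tal1.
Lyl1 promoter: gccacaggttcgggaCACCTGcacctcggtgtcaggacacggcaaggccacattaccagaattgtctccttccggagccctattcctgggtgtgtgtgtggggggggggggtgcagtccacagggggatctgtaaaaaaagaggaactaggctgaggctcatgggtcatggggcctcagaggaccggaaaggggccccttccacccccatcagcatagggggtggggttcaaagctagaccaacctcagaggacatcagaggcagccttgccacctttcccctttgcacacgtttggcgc
Tal1 upstream promoter: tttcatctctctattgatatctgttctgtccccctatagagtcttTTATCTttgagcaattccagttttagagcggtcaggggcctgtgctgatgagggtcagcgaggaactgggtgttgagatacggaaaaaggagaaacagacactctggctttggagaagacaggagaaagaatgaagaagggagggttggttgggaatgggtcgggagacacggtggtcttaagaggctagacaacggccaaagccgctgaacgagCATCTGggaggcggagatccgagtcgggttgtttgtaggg
The windows searched leave out a whole chromosome, and 12 of them belonged to 7 of the 10 genes (Tal1, Lyl1, Ldb1, Tcf3, Tcf12, Id2 and Id3). A RUNX site (TGTGGT or TGCGGT, searched on both strands) was in 0 of the 12, and in 22.4% of all 32851 windows searched. The E-box in Lyl1 and the E-box and GATA site in Tal1 are motifs found in 72.3% and 29.8% of all windows, respectively, so their presence is a description and no evidence of binding.

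Values are log2 intensities after normexp background correction and quantile normalization. A gene was called changed in a limma contrast when its unadjusted P was at most 0.001 and its difference at least 2-fold. Adjusted P values are Benjamini-Hochberg values from limma over all 15202 genes tested. Under this rule 7.09% of all genes were called with Dox in HE, 7.22% in HE2, 3.73% in the CD41+KIT+Tie2- progenitors and 6.31% after expansion to myeloid progenitors. Of the 10 genes, 2 were called in HE (Lyl1 lower, Lmo2 higher), 1 in HE2 (Lyl1 lower), 0 in the sorted progenitors and 1 after expansion to myeloid progenitors (Tcf4 higher), while 3, 6, 1 and 3 had an unadjusted P under 0.05. Counts of 2, 1, 0 and 1 in 10 genes are too few to set this group apart from the background shares. The median differences of the 10 genes were 0.15, 0.37, 0.20 and 0.13, beside -0.01, -0.03, -0.04 and -0.02 over all genes tested.

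**Figure D1:**
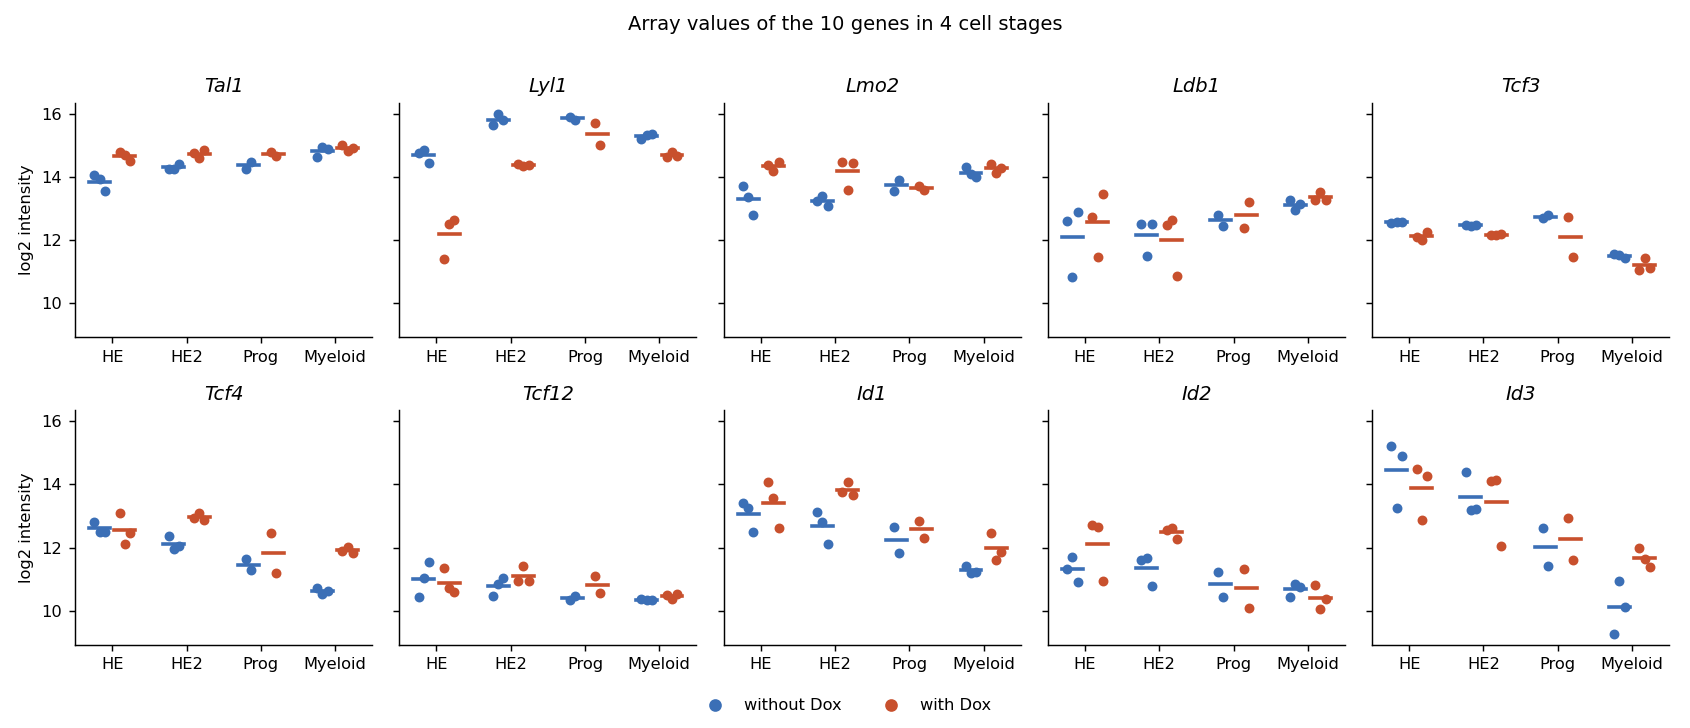
Log2 intensity of each of the 10 genes (vertical axis) on every array, by stage (horizontal axis), without and with Dox; bars mark group means. Lyl1 without Dox lay between 14.44 and 14.85 in HE and with Dox between 11.41 and 12.65. Levels of different genes come from different probes and are not comparable.

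Runx1t1, the mouse gene of the ETO moiety, served as the check of induction, since its probe may read the human transgene. It was higher on every array with Dox than on every array of the same stage without. The differences were 2.08 for HE2, 3.96 for the sorted progenitors and 2.06 for myeloid progenitors, all called, and 1.24 in HE (adjusted P = 0.0155), which missed the call. Arrays of HE, HE2, both uninduced progenitor replicates and the first induced one lay on slides 1 and 2, scanned on 1 day. All myeloid arrays, the second induced progenitor array and the additional progenitor array lay on slide 3, scanned on another day. Between 48.8% and 78.4% of spots were well above background on an array. In these bulk samples, fewer cells of a type and less RNA per cell cannot be told apart. Markers of other cell types moved with Dox. Marker levels are given as the log2 of the summed intensities of a list, in which the brightest markers weigh most. The level of 6 erythroid markers went from 15.10–15.45 in uninduced HE to 17.42–18.42 in induced HE. It was highest in uninduced myeloid progenitors (20.14–20.28). With Dox in HE, 2 of the 6 were called higher and 0 lower. The 5 macrophage and neutrophil markers on the array summed to 14.72–15.36 in uninduced myeloid progenitors and 15.19–15.63 in uninduced CD41+KIT+Tie2- progenitors, and they moved in different directions between these stages. Mpo, a granule enzyme of early myeloid cells, fell from a mean of 14.97 to 13.11, while the macrophage receptor gene Csf1r rose from 11.90 to 14.07. Mast cell markers went from 9.26–9.62 to 14.30–14.72 in HE, almost wholly through Hdc, the enzyme that makes histamine.

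Lyl1 gave the largest Dox response of the 10 genes in HE and in HE2. In HE the 3 uninduced arrays read 14.76, 14.85 and 14.44 and the 3 induced arrays 11.41, 12.51 and 12.65. The induced arrays were all lower, with a wide gap to the uninduced ones. Lyl1 fell by 2.50 on the log2 scale (SE 0.25, 5.65-fold, adjusted P = 1.95e-06). Within slide 1 the difference was -3.40 (1 induced against 2 uninduced arrays), and within slide 2 it was -1.86 (2 against 1). In HE2 the uninduced arrays read 15.64, 16.002 and 15.79 and the induced arrays 14.41, 14.36 and 14.37. These groups were again apart, and the induced arrays lay within 0.05 of each other. Lyl1 fell by 1.44 (2.70-fold, adjusted P = 0.000589), with -1.41 within slide 1 and -1.43 within slide 2. Both calls held in all 38 alternative settings, which ran from -2.73 to -2.11 in HE and from -1.63 to -1.34 in HE2.

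Later stages showed smaller Lyl1 differences that were not called. In CD41+KIT+Tie2- progenitors the arrays read 15.91 and 15.79 without Dox and 15.71 and 14.999 with it, a difference of -0.49 (95% interval -1.14 to 0.15, adjusted P = 0.39). In myeloid progenitors they read 15.20, 15.31 and 15.35 without Dox and 14.64, 14.77 and 14.65 with it, a difference of -0.60 (SE 0.25, adjusted P = 0.134). The induced arrays were the lower ones in myeloid progenitors, where 46.6% of all genes had arrays apart. In the sorted progenitors the additional uninduced array read 15.28, below one of the induced arrays, so the groups overlap when it is counted. The lower induced progenitor array (14.999) lay on slide 3, as did this additional array. Within slide 1, with 1 progenitor array of each group, the Lyl1 difference was -0.20. The response in myeloid progenitors was tested directly against that in HE: the difference between the responses was 1.90 (SE 0.354, adjusted P = 0.00231), called in a contrast where 4.72% of all genes were. Myeloid cells had Dox for 12 h and a different culture, so the stage and the length of induction cannot be told apart here. Without induced myeloid array 3 it was 1.92 and without array 2 it was 1.86, both called. Scaling to the 75th percentile gave 1.74 (adjusted P = 0.028) and ended this call. The responses of HE2 and HE differed by 1.06 (adjusted P = 0.233) and those of progenitors and HE2 by 0.94 (adjusted P = 0.547), neither called.

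Blood markers are given beside these values. The summed level of 6 haematopoietic markers was 12.21–12.52 without and 12.10–12.54 with Dox in HE, all 6 well above background on the uninduced arrays, and in HE2 it went from 14.24–14.74 to 13.42–13.93. In HE 1 of the 6 rose and 2 fell. The CD41 gene Itga2b, one of those markers and part of the sort, fell by 3.21 in HE (adjusted P = 0.00205). Its difference of -2.46 in HE2 was not called (adjusted P = 0.014). Summed cardiac and smooth muscle markers in HE were 16.67–17.84 without and 15.18–15.61 with Dox, and the epithelial markers 14.59–15.89 and 12.65–13.35. Markers within these lists did not all move together. Of the 5 cardiac and smooth muscle markers, 1 was called higher and 1 lower. The mean of Acta2 fell from 15.52 to 13.51, Tnnt2 went from 11.30 to 11.03 and Myl7 rose from 5.61 to 6.77. Of the 4 epithelial markers 2 were tested and 1 was called lower, while Epcam had means of 5.42 and 5.43. The part of these cell types in the Lyl1 values was not tested.

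Tal1, which encodes SCL, moved the other way in HE but by less than the 2-fold limit. The uninduced HE arrays read 14.05, 13.94 and 13.55 and the induced arrays 14.77, 14.69 and 14.50, without overlap. The difference was 0.81 (SE 0.153, 1.75-fold, adjusted P = 0.00112), past the P limit alone. In HE2 the arrays read 14.26, 14.25 and 14.39 without Dox and 14.76, 14.59 and 14.84 with it, a difference of 0.43 (adjusted P = 0.0654). In progenitors they read 14.26 and 14.48 without Dox and 14.78 and 14.66 with it (0.35, adjusted P = 0.307). Myeloid progenitors overlapped, with 14.64, 14.94 and 14.87 without and 15.02, 14.82 and 14.92 with Dox (0.11, adjusted P = 0.778). Induced arrays were thus above all uninduced arrays at the 3 blast culture stages, where no difference was called. Groups of single genes often do not overlap at these sizes: 25.1% of all genes in HE, 32.3% in HE2 and 49% in progenitors had arrays apart in this way. In myeloid progenitors the share was 46.6%.

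**Figure D2:**
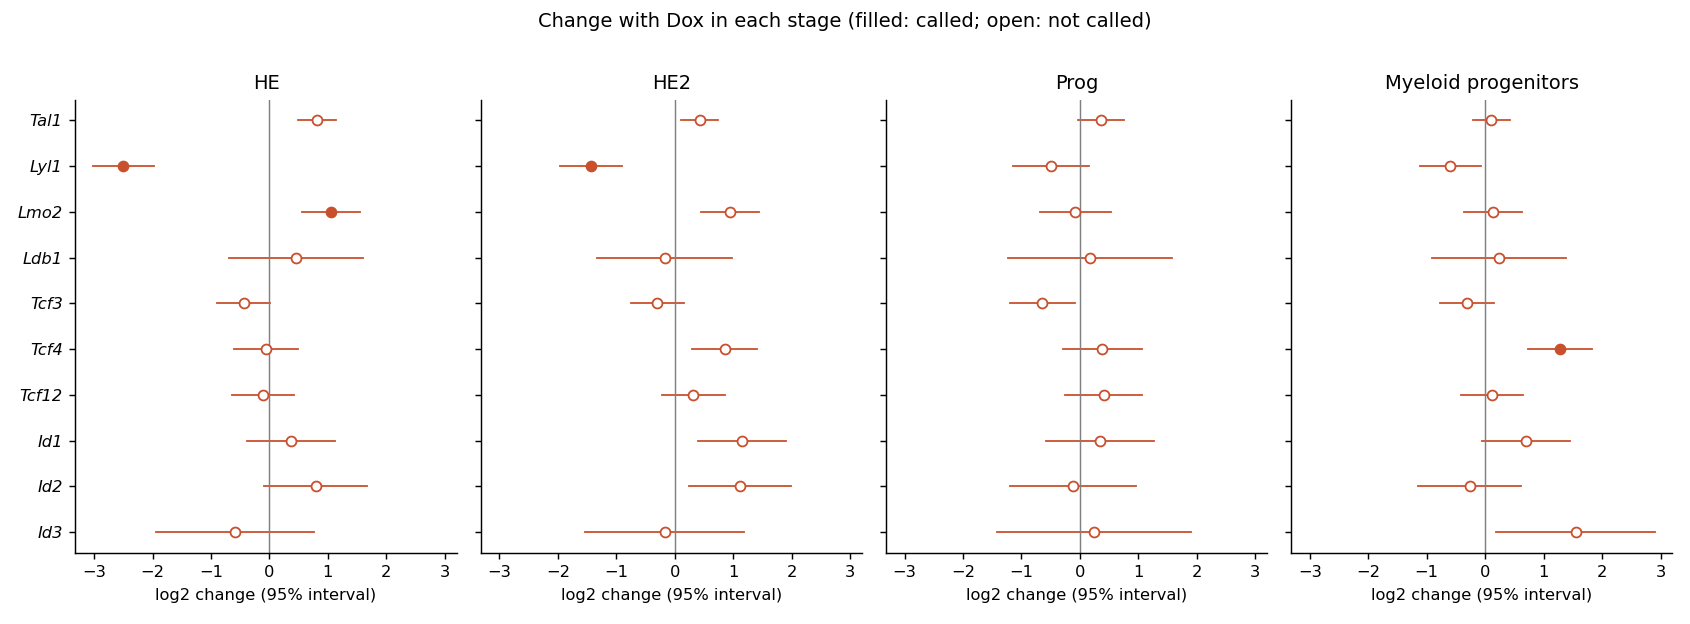
Log2 difference with minus without Dox (horizontal axis) for each of the 10 genes at each stage, with 95% intervals; filled points are called. Lyl1 is called in HE (-2.50) and HE2 (-1.44), Lmo2 in HE (1.06) and Tcf4 in myeloid progenitors (1.28).

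Lmo2, the bridge between the bHLH pair and LDB1, was higher with Dox in HE. The uninduced arrays read 13.70, 13.37 and 12.79 and the induced arrays 14.38, 14.19 and 14.47. The groups did not overlap, as for 25.1% of all genes in HE, and uninduced array 3 was the lowest. Lmo2 rose by 1.06 (SE 0.236, 2.08-fold, adjusted P = 0.00423). This value sits just past the 2-fold limit, and the call held in 33 of 38 settings: it was lost with 75th percentile scaling (0.89, adjusted P = 0.0563), in a fit of only HE (1.06, adjusted P = 0.0617) and without uninduced array 3 (0.81), induced array 1 (1.04) or induced array 3 (1.00). In HE2 the arrays read 13.23, 13.38 and 13.08 without and 14.48, 13.59 and 14.45 with Dox. Their difference of 0.94 (1.92-fold, adjusted P = 0.00956) was not called, though it was without induced array 2 (1.23). The Lmo2 responses of HE2 and HE differed by -0.12 (95% interval -0.82 to 0.58). In progenitors the values were 13.56 and 13.91 without and 13.71 and 13.60 with Dox (-0.08), and in myeloid progenitors 14.32, 14.10 and 13.98 without and 14.40, 14.12 and 14.27 with Dox (0.13). At both of these stages the groups overlapped.

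Ldb1, the adaptor that self-associates and ties LMO2 complexes together, was not called at any stage and varied widely within groups. HE arrays read 12.60, 10.82 and 12.89 without and 12.73, 11.48 and 13.47 with Dox, and HE2 arrays 12.51, 11.50 and 12.50 without and 12.49, 12.64 and 10.86 with Dox. A single array of each group of 3 was lower than its fellows by about 1 log2 unit or more, apart from uninduced and induced myeloid progenitors, which ran from 12.96 to 13.52. The Dox differences were 0.46, -0.17, 0.17 and 0.23 from HE to myeloid progenitors. Their 95% intervals were wide, from -0.69 to 1.60 in HE, so a 2-fold difference could not have been told from none.

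With Dox, Tcf4 alone among the E-protein genes was called. In myeloid progenitors it read 10.72, 10.55 and 10.64 without Dox and 11.89, 12.01 and 11.84 with it. The groups were tight and far apart, and Tcf4 rose by 1.28 (SE 0.263, 2.43-fold, adjusted P = 0.00246). The call held in 37 of 39 settings, among them without induced array 3 (1.31) and without array 2 (1.23). It was lost with 75th percentile scaling (1.09, adjusted P = 0.0192) and on the dimmer second probe (0.97, adjusted P = 0.0216). In HE2 the arrays read 12.36, 11.97 and 12.05 without and 12.95, 13.11 and 12.88 with Dox. They did not overlap, as for 32.3% of all genes in HE2, and the difference of 0.85 (adjusted P = 0.0317) was not called. HE arrays read 12.81, 12.51 and 12.50 without and 13.08, 12.12 and 12.45 with Dox, a difference of -0.06 with an interval from -0.61 to 0.49. Progenitor arrays read 11.63 and 11.29 without and 12.47 and 11.21 with Dox (0.38). The Tcf4 responses of myeloid progenitors and HE differed by 1.34 (adjusted P = 0.0348), which was not called.

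Endothelial markers moved beside Tcf4 in myeloid progenitors: the summed level of the 8 markers was 13.46–13.91 without and 15.60–15.86 with Dox, with all 8 well above background on every array, and 6 of the 8 rose. Tek, which encodes the sort marker Tie2, rose by 3.07. Other marker lists moved in myeloid progenitors as well. The 4 megakaryocyte markers summed to 16.21–16.38 without and 15.30–15.43 with Dox, with 3 called lower and 0 higher. The mast cell sum went from 8.91–9.50 to 13.28–15.07, and the 2 of 4 markers tested were both called higher. The part of endothelial or other cells or transcripts in the Tcf4 value was not tested. In HE2 the endothelial sum was 15.60–16.11 without and 16.75–16.98 with Dox.

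Tcf3, the E-protein gene best known from lymphoid cells, showed small Dox differences of -0.44, -0.30, -0.65 and -0.31 from HE to myeloid progenitors, none called (adjusted P = 0.206 in HE). The HE arrays read 12.55, 12.58 and 12.57 without and 12.11, 12.02 and 12.26 with Dox, and the HE2 arrays 12.49, 12.44 and 12.47 without and 12.16, 12.17 and 12.18 with Dox. Induced arrays were lower in both, at stages where 25.1% and 32.3% of all genes had arrays apart. Myeloid arrays read 11.57, 11.52 and 11.45 without and 11.06, 11.42 and 11.12 with Dox, again lower with Dox. In progenitors the readings were 12.69 and 12.80 without and 12.74 and 11.46 with Dox, where the low array lay on slide 3. Without the other induced progenitor array, Tcf3 was called lower with Dox there (-1.29). Within slide 1 the progenitor difference was 0.05.

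Tcf12, which encodes the E-protein HEB, was not called in any comparison. HE arrays spread from 10.46 to 11.53 without and from 10.62 to 11.36 with Dox, and HE2 arrays from 10.47 to 11.06 and from 10.95 to 11.42. Progenitor arrays read 10.36 and 10.48 without and 11.09 and 10.55 with Dox, and myeloid arrays 10.37, 10.36 and 10.36 without and 10.50, 10.39 and 10.55 with Dox. The Dox differences were -0.12, 0.32, 0.40 and 0.12, with intervals from -0.65 to 0.42 in HE and from -0.41 to 0.65 in myeloid progenitors. These intervals leave out a 2-fold difference in either direction at those stages.

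The genes of the E-protein antagonists, Id1, Id2 and Id3, were not called with Dox at any stage. Id1 in HE2 read 13.13, 12.81 and 12.12 without and 13.76, 14.08 and 13.67 with Dox, and Id2 read 11.61, 11.68 and 10.80 without and 12.55, 12.63 and 12.27 with Dox. Both genes were higher on every induced HE2 array than on any uninduced one, at a stage where 32.3% of all genes had arrays apart. Their differences were 1.15 (2.22-fold, adjusted P = 0.0332) and 1.12 (2.17-fold, adjusted P = 0.0759). Id1 in HE2 was called with slide as a block (1.37, adjusted P = 0.00313). Id3 in HE2 overlapped, with 14.41, 13.20 and 13.22 without and 14.10, 14.14 and 12.06 with Dox (-0.17).

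In HE, Id1 read 13.41, 13.26 and 12.49 without and 14.09, 13.56 and 12.62 with Dox (0.37). Id2 read 11.32, 11.72 and 10.91 without and 12.72, 12.66 and 10.94 with Dox (0.79, adjusted P = 0.247). Id3 read 15.23, 13.25 and 14.91 without and 14.50, 12.87 and 14.26 with Dox (-0.59). The groups overlapped for all 3 genes in HE. In progenitors the Dox differences were 0.34 for Id1, -0.12 for Id2 and 0.24 for Id3, again with overlap. In myeloid progenitors Id3 read 9.28, 10.95 and 10.13 without and 11.99, 11.63 and 11.39 with Dox. The induced arrays were all higher, but the uninduced ones spread over more than 1.5 log2 units, and the difference of 1.55 was not called (SE 0.646, adjusted P = 0.131). Id1 there read 11.42, 11.20 and 11.24 without and 12.47, 11.62 and 11.87 with Dox (0.70, adjusted P = 0.237), and Id2 gave -0.26.

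Along the uninduced course, HE to HE2 is the step at which RUNX1 drives endothelium towards blood. In that comparison 5.07% of all genes were called, and of the 10 genes Lyl1 alone, with 2 at an unadjusted P under 0.05. Lyl1 rose by 1.12 (SE 0.25, 2.18-fold, adjusted P = 0.00658). Tal1 was 0.46 higher in HE2 and did not pass (adjusted P = 0.066), and the other 8 genes lay between -0.85 (Id3) and 0.07 (Ldb1). The Lyl1 call was lost when uninduced HE array 3 (1.00) or uninduced HE2 array 2 (1.03) or 3 (1.13, adjusted P = 0.0284) was left out. From HE2 to CD41+KIT+Tie2- progenitors 5.39% of all genes and 0 of the 10 were called, with 2 at an unadjusted P under 0.05. Those were Tcf4 (-0.67) and Id3 (-1.58, adjusted P = 0.249).

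From CD41+KIT+Tie2- progenitors to myeloid progenitors, 13.9% of all genes were called and 1 of the 10, Tcf3. The uninduced progenitor arrays read 12.69 and 12.80 and the uninduced myeloid arrays 11.57, 11.52 and 11.45. Tcf3 fell by 1.23 (SE 0.242, 2.35-fold, adjusted P = 0.000866), a call that held in 33 of 39 settings. A dimmer second Tcf3 probe (mean 9.02) followed the used one loosely over the 22 arrays of the fit (r of 0.455). All 3 myeloid arrays lay on slide 3 and both progenitor arrays on slides 1 and 2. The additional uninduced progenitor array, which lay on slide 3, read 11.63, within 0.2 of the myeloid arrays. With that array as a further replicate the difference was -0.86 (adjusted P = 0.0212), with it in place of the other 2 it was -0.12 (adjusted P = 0.893), and with slide as a block it was 0.07. Among the uninduced arrays of the fit, stage and slide differ together and cannot be told apart for Tcf3. Id3 (-1.91, adjusted P = 0.0501), Id1 (-0.95), Tcf4 (-0.83) and Tal1 (0.45) were the other genes with an unadjusted P under 0.05. Their arrays lay on the same slides as those of Tcf3, so that stage and slide differ together for them too. In the same order, the additional progenitor array read 11.02, 12.60, 11.08 and 14.22. Uninduced progenitor means were 12.03, 12.24, 11.46 and 14.37, and uninduced myeloid means 10.12, 11.29, 10.64 and 14.82.

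**Figure D3:**
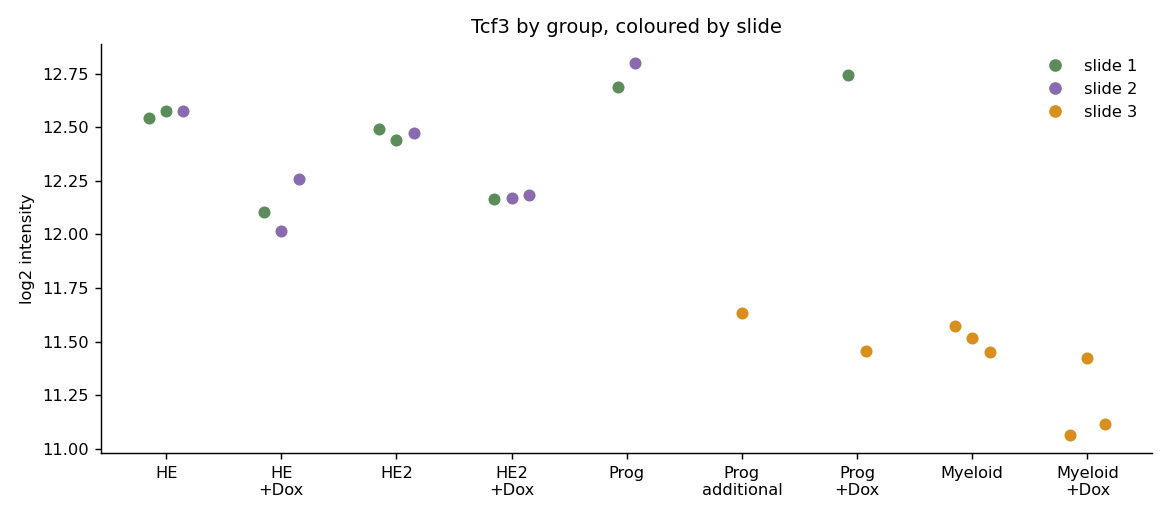
Log2 intensity of Tcf3 (vertical axis) on every array by group (horizontal axis), coloured by slide. Arrays on slide 3 read at most 11.63, including the additional uninduced progenitor array and the second induced progenitor array (11.46), and those on slides 1 and 2 read at least 12.02.

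With Dox, 3.1% of all genes were called from HE to HE2, 7.36% from HE2 to progenitors and 7.37% from progenitors to myeloid progenitors. Of the 10 genes, 1, 0 and 0 were called, while 1, 4 and 3 had an unadjusted P under 0.05. Lyl1 rose by 2.19 from induced HE to induced HE2 (4.55-fold, adjusted P = 3.18e-05), a call that held in all 38 settings. It was 0.98 higher in induced progenitors than in induced HE2 (adjusted P = 0.0248), not called. Its mean was 14.38 in induced HE2 and 14.69 in uninduced HE, and these neighbours in its order of levels did not differ beyond their spread. From induced HE2 to induced progenitors Id2 differed by -1.76 (adjusted P = 0.0155), Id1 by -1.26 (adjusted P = 0.0421) and Tcf4 by -1.14 (adjusted P = 0.013), none called. All 3 were lower on both progenitor arrays than on any HE2 array, in a comparison where 35.7% of all genes had arrays apart. Within slide 1, with 1 array of each group, the differences were -1.21 for Id2, -0.93 for Id1 and -0.47 for Tcf4. Over all settings, 0 to 4 of the 10 genes were called in this comparison.

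**Figure D4:**
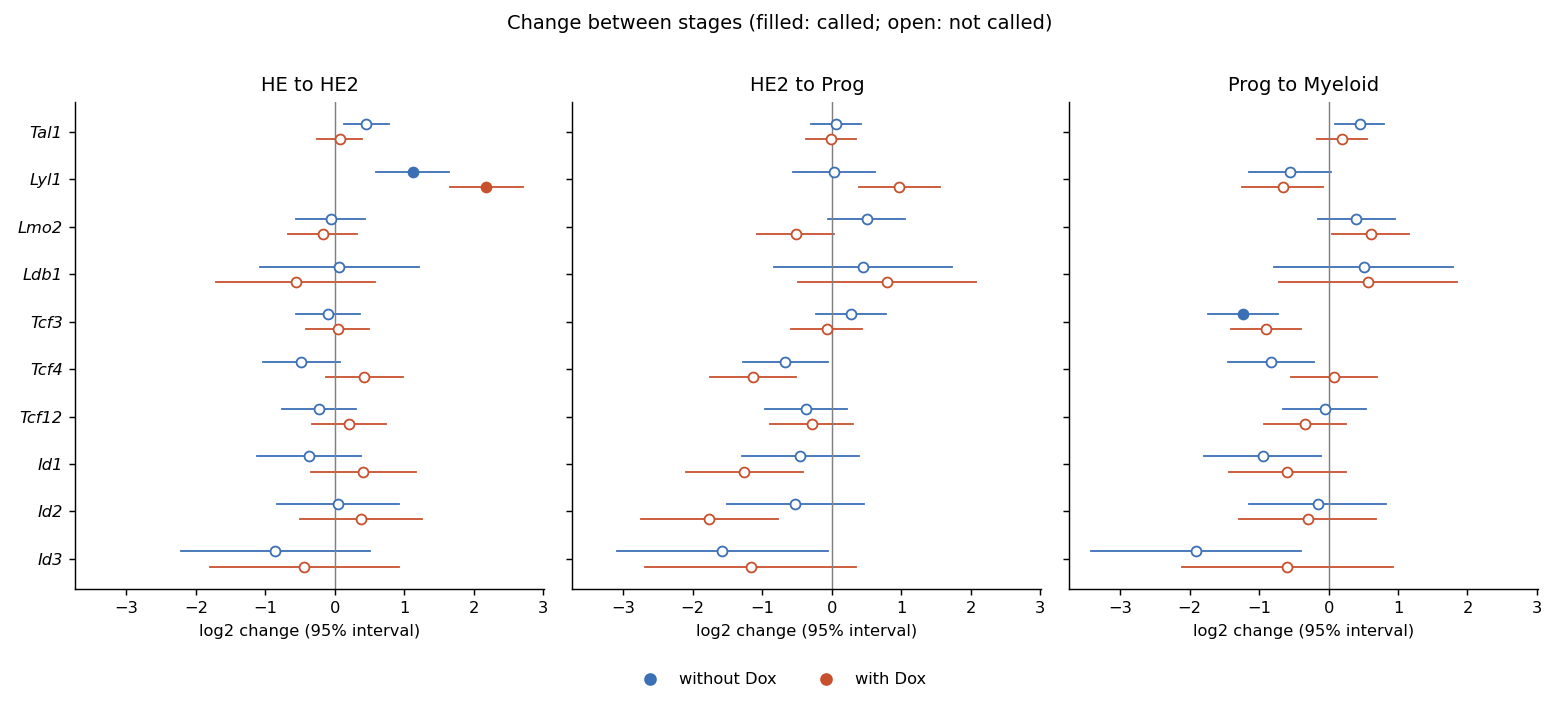
Log2 difference between successive stages (horizontal axis) for each of the 10 genes, without and with Dox, with 95% intervals; filled points are called. Lyl1 is called from HE to HE2 without (1.12) and with Dox (2.19), and Tcf3 from progenitors to myeloid progenitors without Dox (-1.23).

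Across the 3 tests of whether responses differed between stages, 1.34% of all genes were called for HE2 against HE, 0.645% for progenitors against HE2 and 4.72% for myeloid progenitors against HE. Of the 10 genes, 0, 0 and 1 were called, with 2, 2 and 5 at an unadjusted P under 0.05. The called gene was Lyl1, described above. The others under 0.05 for myeloid progenitors against HE were Tal1 (-0.70, adjusted P = 0.0599), Lmo2 (-0.92), Tcf4 (1.34) and Id3 (2.14).

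Id3 covered the widest range of group means, 4.34 log2 units, from 14.46 in uninduced HE to 10.12 in uninduced myeloid progenitors. Lyl1 covered 3.66, Id1 2.55, Tcf4 2.34, Id2 2.06 and Tal1 1.08. When the 8 group means of each gene were put in order, Lyl1 had 1 called step between neighbours, that from induced HE (12.19) to induced HE2, and the other 9 genes had 0. Tal1 ran from 13.85 in uninduced HE through uninduced HE2 and progenitors, then induced HE, progenitors and HE2, to myeloid progenitors without (14.82) and with Dox (14.92).

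Some group means ran in parallel. Over the 8 groups, Pearson's r was 0.946 for Id1 and Tcf4, 0.923 for Id1 and Tcf12, 0.902 for Tcf12 and Tcf4, 0.894 for Id3 and Tcf4 and 0.866 for Id1 and Id3. Lyl1 and Tal1 had an r of -0.18 and Lmo2 and Lyl1 of -0.59. These r values describe 8 points that share a quantile normalization and, in part, a slide. The expressed genes most like Tal1 over the 8 means were Pts (0.995), Hbb-bh1 (0.978) and Gypc (0.977), of which Hbb-bh1 is an embryonic globin. Those most like Id1 were Tle1 (0.995), Usp12 (0.991) and Usp53 (0.986).

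The other known parts of the SCL complex were described through a list of 12 genes, all tested. In HE 0 of the 12 were called with Dox. In HE2, Gata1, the erythroid GATA factor, rose by 2.07 and Ldb2, the relative of Ldb1, rose by 1.60. Cbfa2t3, the ETO family corepressor of the complex, fell by 1.31 there. The Gata1 call held in all 38 settings and that of Cbfa2t3 in 32 of 38. In progenitors Ldb2 rose by 2.23, and in myeloid progenitors Ldb2 rose by 1.63 (adjusted P = 0.00465) and Gata2 by 1.26 (adjusted P = 0.00628), a call lost without induced array 2 (1.20). Ldb2 arrays in HE2 read 10.39, 10.46 and 10.88 without and 11.63, 12.16 and 12.75 with Dox. In progenitors they read 6.63 and 7.29 without and 8.55 and 9.83 with Dox, and in myeloid progenitors 7.33, 8.85 and 8.22 without and 10.04, 9.60 and 9.66 with Dox. The groups did not overlap at these 3 stages, where 32.3%, 49% and 46.6% of all genes had arrays apart. In the same order, the Ldb2 calls held in 32, 34 and 34 of 38 settings. The list medians were 0.03, 0.10, 0.06 and 0.08 from HE to myeloid progenitors.

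A list of 16 tested bHLH genes of 22 held Tal2, the other close relative of Tal1, which rose at all 4 stages. In HE it read 6.69, 6.85 and 6.45 without and 11.32, 11.25 and 10.50 with Dox, in HE2 6.07, 6.10 and 5.46 without and 10.87, 9.79 and 8.50 with Dox. Tal2 rose by 4.36 in HE (adjusted P = 8.34e-07), 3.84 in HE2 (adjusted P = 4.89e-06) and 2.67 in progenitors (adjusted P = 0.00251), where 1 of 2 uninduced arrays was well above background. In myeloid progenitors it was not well above background on any uninduced array (measured mean 5.10) and averaged 9.25 with Dox, at least 15.5-fold higher (adjusted P = 1.32e-06). That bound sets the induced mean against the lowest signal among probes well above background on each uninduced array. Hand1, a cardiac and mesodermal factor, fell by 2.35 in HE and 3.43 in HE2. In HE, Tcf15 fell by 2.23 and the Notch target Hes1 fell by 1.12. Hand2, of the same family as Hand1, rose by 2.92 in progenitors and 2.66 in myeloid progenitors. In all, 1 gene of this list rose and 3 fell in HE, 1 and 1 in HE2, and 2 and 0 both in sorted and in myeloid progenitors. The list medians were -0.17, 0.34, 0.08 and 0.02.

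**Figure D5:**
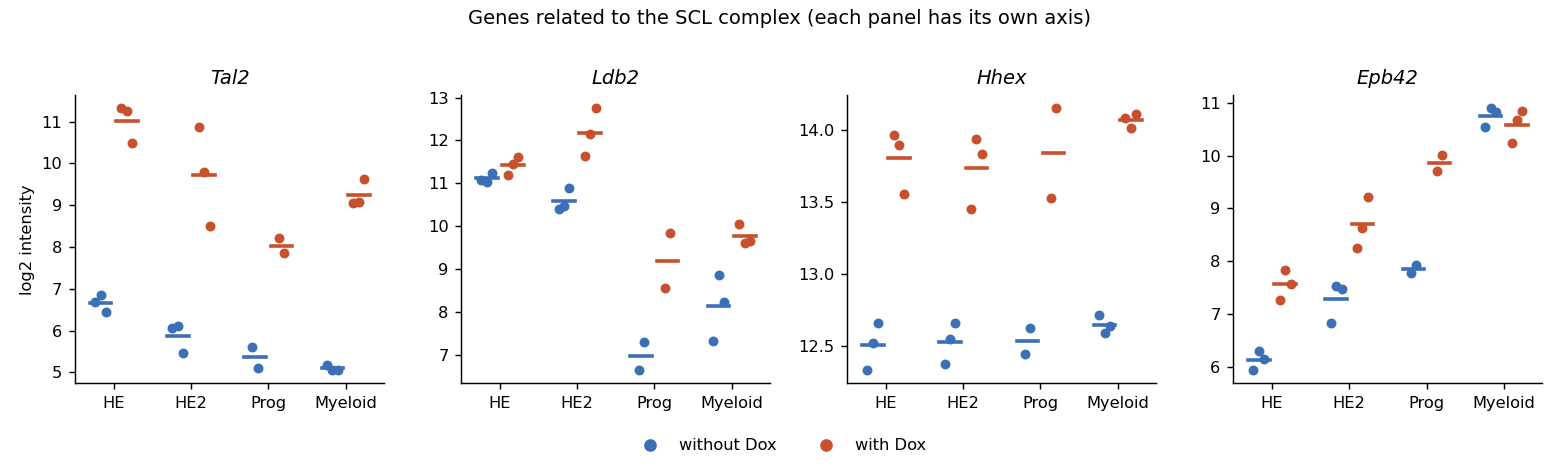
Log2 intensity of Tal2, Ldb2, Hhex and Epb42 (vertical axes, each with its own scale) on every array by stage, without and with Dox. Induced Tal2 arrays lie above the uninduced ones at all 4 stages, and Epb42 arrays in uninduced myeloid progenitors (10.55, 10.90 and 10.83) overlap the induced ones.

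Among 6 genes known as targets of the complex, Hhex, a homeobox gene of early blood and endothelium, rose at all 4 stages, by 1.30, 1.21, 1.31 and 1.42. Its HE arrays read 12.33, 12.52 and 12.66 without and 13.97, 13.90 and 13.56 with Dox, and its myeloid arrays 12.71, 12.59 and 12.64 without and 14.08, 14.02 and 14.11 with Dox. Its progenitor arrays read 12.44 and 12.62 without and 13.53 and 14.15 with Dox, and the additional uninduced array 13.11. The Hhex call in progenitors held in 34 of 38 settings. Epb42, which encodes a red cell membrane protein, rose by 1.43 in HE, 1.41 in HE2 and 2.00 in progenitors. Gata1 is on this list too. With Dox 2 of the 6 rose in HE, 3 in HE2, 2 in sorted and 1 in myeloid progenitors, and 0 fell. The list medians were 0.77, 0.54, 0.98 and -0.049. Epb42 and Gata1 rose at stages where the summed erythroid markers were higher with Dox as well (16.26–16.69 without and 18.48–18.75 with Dox in HE2, 17.45–17.70 and 18.94–19.43 in progenitors), and the part of erythroid cells in these values was not tested. In the uninduced course the same list had 4 genes higher and 0 lower from HE to HE2, with Gata1 rising by 2.84, Gfi1b by 2.63, the erythroid factor gene Klf1 by 1.40 and Epb42 by 1.15.

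Of the 4 factors that occupy sites together with SCL, Fli1 rose by 1.41 in HE2, by 1.58 in the sorted progenitors and by 1.29 in myeloid ones, where Erg rose by 2.08 and Gata2 by 1.26. These 3 genes are also active in endothelium, whose markers rose in induced myeloid progenitors as given above. The part of endothelial cells or transcripts in the values of these 3 genes was not tested. The fourth, Runx1, was not called with Dox at any stage and rose by 2.28 from uninduced HE to HE2. The list medians were 0.26, 0.53, 0.51 and 1.27.

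The BMP genes that act upstream of Id1, Id2 and Id3 were listed with 16 members, 14 of them tested. In HE 0 rose and 1 fell (the ligand Bmp2, by 1.51), in HE2 1 rose (the receptor Acvrl1, 1.15, called in 15 of 38 settings) and in progenitors 0 were called. In myeloid progenitors 4 rose and 0 fell: the coreceptor Eng by 2.94 (adjusted P = 0.000735), Acvrl1 by 2.16 (adjusted P = 4.62e-05), the ligand Bmp4 by 2.11 (adjusted P = 2.51e-06) and the transducer Smad1 by 1.77 (adjusted P = 6.67e-05). Eng is also one of the 8 endothelial markers. The list medians were 0.26, 0.35, 0.48 and 0.83, beside myeloid differences of 0.70, -0.26 and 1.55 for Id1, Id2 and Id3, none of them called.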

How the data were processed

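RNA of 23 samples was hybridised to 1-colour Agilent arrays. The authors deposited, for each array, scanner output with spot intensity (median signal and background), extracted with Agilent Feature Extraction (version 10.7.1.1 per the labels, 10.7.3.1 per the file headers), and a matrix of log2 values that they had normalized with limma. The deposited log2 values served as an alternative. Of their 23 columns, 17 correlated best with the array of their own sample and 6 with another array of their own group: numbers 2 and 3 of induced HE, HE2 and myeloid progenitors are exchanged between the matrix and the array files (r of 0.998 to 0.999 with the best array). Replicate numbers here follow the array files. The matrix has 0 columns left unassigned.

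Control spots (3671 of the spots on an array, beside 59305 others) were left out after normexp correction with an offset of 16, arrays were quantile normalized and spots of a probe averaged (limma 3.58.1, R 4.3.3). Outlier flags were set to missing. Genes were named by the probe's RefSeq accession (26582 of 55681 probes) in the GRCm38.p6 table, used for names and promoter windows only, and represented by the probe with the highest mean. A gene was tested if 1 or more arrays read 6.5 or higher on the log2 scale. A fit of 8 groups on 22 arrays (14 residual degrees of freedom at most, 12 at least) gave 13 contrasts by lmFit and eBayes. The scripts were tested on simulated data.

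The 10 genes were named throughout. From the other lists, genes past the threshold in the Dox comparisons were named, at most 4 per list and comparison by size, and fewer in the comparisons between stages, together with the sort markers, Runx1t1 and the 3 genes most like Tal1 and Id1. A gene of the target list is not reported here. The genes and lists were chosen with earlier results of these data known. Replicate numbers were checked for pairing: only uninduced HE and HE2 had same-number correlations of deviations over 0.1 in every pair (0.394, 0.797 and 0.610), which gave the same call with and without the block. With the numbers of the deposited matrix, Dox in HE2 (0.361, 0.609 and 0.488) and in myeloid progenitors (0.211, 0.127 and 0.265) met this rule too, and that block changed no call for the 10 genes there. Background correction, normalization, filter, probe, threshold, slide, scan day and each array were varied. The number of arrays limits the precision.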

Additional observations from a re-analysis of the deposited data

Results flagged for a closer look

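Responses to Dox that differed between stages past the same rule (unadjusted P at most 0.001 and at least 2-fold, adjusted P from limma) are given here as differences of 2 log2 Dox differences. Groups of 2 or 3 arrays are too small for a test of single outlying arrays, and none was run.

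Myeloid progenitors differed from HE by 1.90 for Lyl1 (adjusted P = 0.00231), whose Dox differences were -2.50 in HE and -0.60 in myeloid progenitors. In the same contrast the BMP genes differed by 2.81 for Bmp4 (adjusted P = 2.34e-05), 2.18 for Bmp2 (adjusted P = 0.00075), 1.96 for Acvrl1 (adjusted P = 0.00581) and 1.54 for Smad1 (adjusted P = 0.0096). Among bHLH genes and site-sharing factors the values were 2.95 for Hand2 (adjusted P = 0.00246), 2.53 for Tcf15 (adjusted P = 0.00123) and 1.95 for Erg (adjusted P = 0.00976). Epb42 differed by -1.61 (adjusted P = 0.00715). Smad1 no longer passed the rule without induced myeloid array 3 (1.52), nor Erg without array 2 (1.77).

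HE2 differed from HE by 1.86 for Hes1 (adjusted P = 0.0246) and by 1.26 for Lmo1, a relative of Lmo2 (adjusted P = 0.0546). The Lmo1 value passes the unadjusted rule and misses an adjusted P of 0.05.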

How the results depend on the processing

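Of the calls for the 10 genes, those of Lyl1 with Dox in HE and HE2 and from induced HE to HE2 held in every setting. The counts stayed at 0 from uninduced HE2 to progenitors, at 1 from induced HE to HE2 and at 0 for HE2 against HE in every setting. Leaving out single arrays gave 1 to 2 of the 10 genes called with Dox in HE, 1 to 2 in HE2, 0 to 1 in progenitors, 1 in myeloid progenitors, 0 to 1 from uninduced HE to HE2 and from uninduced progenitors to myeloid progenitors, 0 to 2 from induced HE2 to progenitors, 0 to 1 from induced progenitors to myeloid progenitors, 0 to 1 for progenitors against HE2 and 1 to 2 for myeloid progenitors against HE. Scaling to the 75th percentile left 1 called with Dox in HE, 0 in myeloid progenitors and 0 for myeloid progenitors against HE, and gave 1 each from induced HE2 to progenitors and from induced progenitors to myeloid progenitors. A fit of only the groups compared left 1 in HE. An adjusted P of at most 0.05 without a fold limit gave 3 with Dox in HE, 4 in HE2, 2 from uninduced progenitors to myeloid progenitors, 4 from induced HE2 to progenitors, 1 from induced progenitors to myeloid progenitors and 2 for myeloid progenitors against HE. With the 2-fold limit it gave 2, 2, 1, 3, 0 and 2 there. From induced HE2 to progenitors an offset of 50, the deposited log2 values, the mean of a gene's probes and scan day as a block each gave 1. The mean of probes and blocks of slide or scan day gave 2 for myeloid progenitors against HE, and slide as a block gave 3 with Dox in HE2.

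With the replicate number as a block, 2 of the 10 genes were called with Dox in HE2, 3 from induced HE2 to progenitors and 2 for myeloid progenitors against HE. With the numbers of the deposited matrix as the block, chosen after seeing the data, 2 were called from induced HE2 to progenitors and 2 for myeloid progenitors against HE. Replicate numbers of the array files pair the uninduced HE and HE2 arrays alone, where the blocked fit kept the Lyl1 call (adjusted P = 0.00771), and the block changed no other call there. The Tcf3 difference from uninduced progenitors to myeloid progenitors turned to 0.067 with slide and 0.051 with scan day as a block, and 0 of the 10 genes were called there under both blocks, with the additional progenitor array as a further replicate, and with it in place of the others (the last chosen after seeing the data). Over all genes that comparison had 2118 calls, 574 with slide and 582 with scan day as a block, and 1066 with the additional array in place of the others. Counts over all genes moved by over 1.5 times elsewhere as well. Without the fold limit the adjusted P gave 2379 calls in place of 1078 with Dox in HE, 2610 in place of 1098 in HE2, 2096 in place of 960 in myeloid progenitors, 5031 in place of 2118 from uninduced progenitors to myeloid progenitors, 1613 in place of 770 from uninduced HE to HE2, 1243 in place of 820 from uninduced HE2 to progenitors, and 862, 2148 and 2767 in place of 471, 1119 and 1120 for the same successive steps with Dox. It gave 135 in place of 203 for HE2 against HE and 22 in place of 98 for progenitors against HE2, and 133 and 22 with the 2-fold limit. A fit of only the groups compared gave 636, 718 and 216 with Dox in HE, HE2 and progenitors (567 in the full fit), 465, 286 and 423 from uninduced HE to HE2, induced HE to HE2 and induced HE2 to progenitors, and 126 and 46 for the first 2 tests between stages. Slide as a block gave 331 with Dox in progenitors, 741 from induced HE2 to progenitors and 64 for progenitors against HE2, and scan day 349 with Dox in progenitors. Leaving out single progenitor arrays gave 332 to 888 with Dox there and 55 to 310 for progenitors against HE2. Normalizing the myeloid arrays apart could give no value for comparisons between both sets.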
